A study of Rattus norvegicus with 8 samples.

Results

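The results concern 9 genes of the lysosome, the acidic organelle in which cells break down proteins, lipids and sugars: the cathepsins Ctsb, Ctsc, Ctsd, Ctsh, Ctsk and Ctsl, the saposin precursor Psap and the membrane proteins Lamp1 and Lamp2. They were chosen by name, as every non-control probe whose gene name, without the suffix "_predicted" or "_mapped" and ignoring case, is on that list. This gave 10 of the 41012 probes on the array, 1 for each gene and 2 for Ctsl (A_43_P11739 and A_44_P109600), and the RefSeq accession of each of the 10 matched the same symbol in the GRCr8 annotation.

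RNA from neurons of the hippocampal CA3 field of male Sprague-Dawley rats was measured on 8 one-colour Agilent whole-genome rat arrays, 2 per group. Naive rats had no treatment, sham rats had sham injury, and the other groups had moderate fluid percussion injury, a pressure pulse to the brain; all brains were taken at 24 h. Dying neurons took up Fluoro-Jade, a stain of degenerating neurons, and surviving neurons were Fluoro-Jade-negative cells next to them, so a "surviving" cell is one that was unstained at that hour. Each injured pool held about 600 laser-captured cells of at least 3 rats, so an array is an average over animals and cells, amplified in 2 rounds before labelling, and replicate numbers are not said to match a surviving pool to a dying one.

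Cathepsins are made as inactive precursors, sorted to the lysosome by mannose 6-phosphate receptors and activated at its low pH. Most are cysteine proteases, Ctsd is an aspartic protease, and when the lysosomal membrane ruptures they can reach the cytosol, where Ctsb, Ctsd and Ctsl have long been studied in neuronal death. Lamp1 and Lamp2 line the inner face of that membrane, and microglia, the resident phagocytes of the brain, hold many lysosomes of their own.

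Levels are given as log2 of the processed signal divided by the array's median probe, so that 0 is the median probe, and one probe's level is not set against another's. The 8 genes other than Lamp2 were well above background on all 8 arrays by the image software's own mark. Lamp2 was so on 7 of 8 and not on dying replicate 1. Of all 41012 probes 23151 and 22397 passed that mark on the naive arrays, 20923 and 20198 on the sham arrays, 29391 and 27111 on the surviving arrays, and 24167 and 28094 on the dying arrays. Dying replicate 1 stood apart: across probes above background everywhere, which are not independent replicates, the 2 arrays of a group correlated at r = 0.892 in dying neurons against 0.967, 0.985 and 0.977 in the naive, sham and surviving groups, and the log2 gap between replicates had an SD of 1.21 against 0.69, 0.49 and 0.59. Its median signal was 19.2, against 52.6 on dying replicate 2 and 52.2 and 48.2 on the surviving arrays. The naive and sham arrays shared 1 slide and scan (median signals 27.2 and 22.7, 16.5 and 16.4) and the surviving and dying arrays another, so in comparisons of injured with uninjured neurons the slide and the injury cannot be told apart. Surviving and dying neurons shared a slide.

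Between dying neurons and sham, 4 of the 10 probes passed the threshold, an adjusted p under 0.05 in limma, which tests every probe against a spread shared over all 8 arrays. Ctsc was higher in dying neurons, and Ctsk, Lamp2 and Psap were lower. Of all 25629 probes tested 40.8% passed, 13.6% higher and 27.2% lower, so 4 of 10, 1 higher and 3 lower, is a share near that of the array as a whole. The median difference of the 10 probes was -0.47 log2 units, beside -0.46 over all probes tested. In surviving neurons against sham 1 of 10 passed, Ctsk, which was lower; of 26910 probes tested 16.3% passed, 5.78% higher and 10.5% lower, and the medians were -0.46 for the members and -0.43 for all probes. Fewer cells of a type in a pool and less RNA per cell cannot be told apart in such samples.

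The direction of these medians depended on the scaling. Over all probes tested the median between dying neurons and sham was -0.46 when arrays were divided by their median probe, 0.27 with the 75th percentile, 0.21 after quantile normalization and 0.56 with the median of probes above background on all arrays. The calls moved with it, from 3482 higher and 6975 lower to 6667 and 4408, to 5202 and 4078, and to 8236 and 3792. In surviving neurons against sham the median of all probes was -0.43 and became 0.36, 0.18 and 0.55 under the same 3 scalings, while 1555 higher and 2833 lower calls became 3861 and 1304, 2373 and 1657, and 5063 and 1434. Scaling by the median of RefSeq probes kept both medians negative, at -0.31 in dying and -0.62 in surviving neurons against sham. The calls there were 3586 higher and 5758 lower in dying neurons, and 944 and 2828 in surviving ones. The 2 medians were -0.28 and 0.09 after normexp background correction. With normexp background correction no probe passed in any comparison, so every call below is lost there. For that reason each called difference of a member is also given relative to the median of all probes tested, under 7 ways of scaling or background correction, the main one included.

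**Figure D1:**
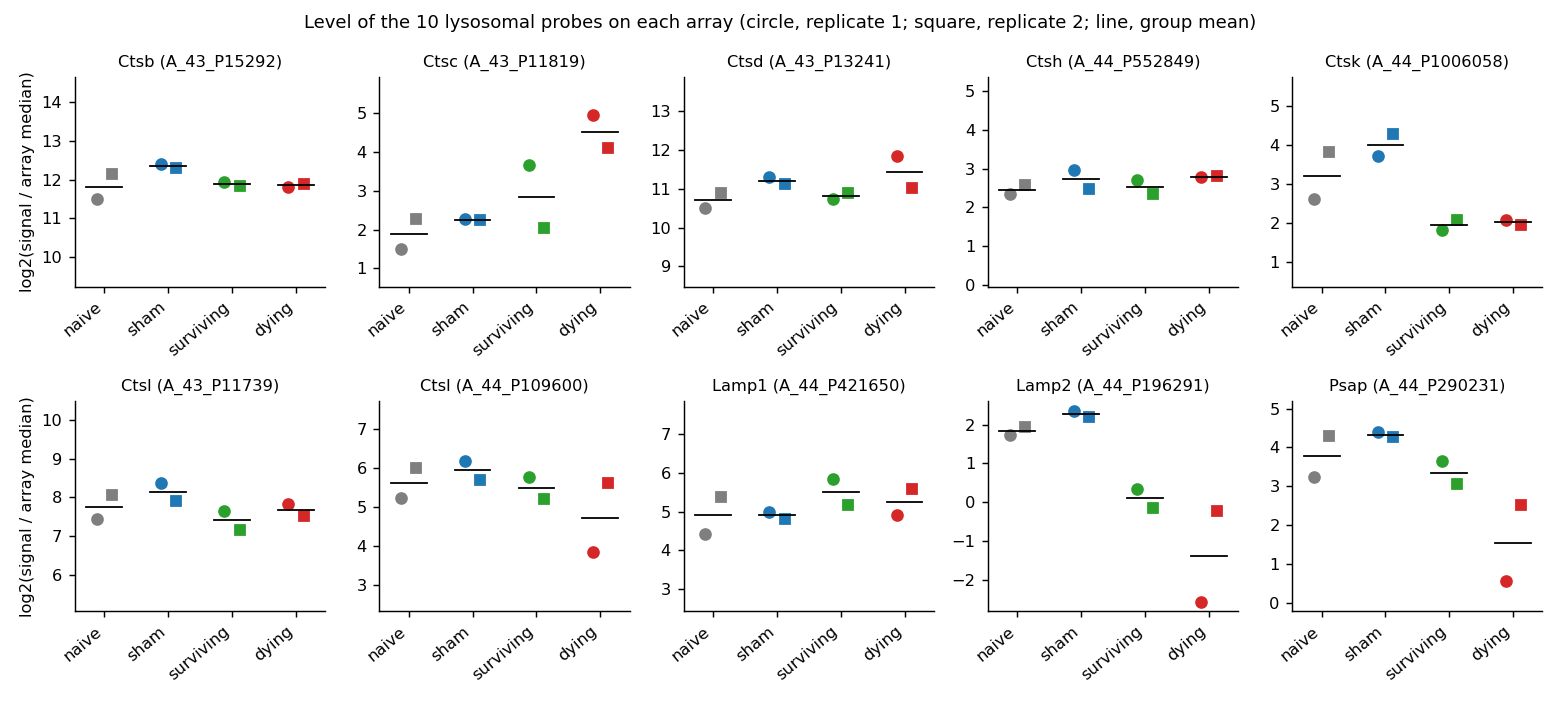
Level of each of the 10 probes on each array, as log2 of signal over the array median, with replicate 1 as circles, replicate 2 as squares and the group mean as a line; every panel spans the same range of log2 units. Ctsk and Lamp2 have all 4 injured arrays below all 4 uninjured ones, and Ctsc is highest on the 2 dying arrays.

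Among the cysteine endopeptidases, which cut inside a protein chain, Ctsk showed the widest separation by injury. Ctsk, the collagen-degrading cathepsin of bone-resorbing osteoclasts, had levels of 2.61 and 3.81 on the naive arrays, 3.72 and 4.29 in sham, 1.81 and 2.08 in surviving neurons and 2.08 and 1.95 in dying neurons. All 4 injured arrays lay below all 4 uninjured ones, and surviving and dying neurons overlapped. Ctsk was 4.17-fold lower in surviving neurons than in sham (log2 difference -2.06, 95% interval -3.32 to -0.80, limma adjusted p = 0.0413) and 3.97-fold lower in dying neurons (-1.99, -3.25 to -0.73, limma adjusted p = 0.0236). Relative to the median of all probes the differences were -1.64 and -1.53, and stayed below 0 under all 7 scalings, at -1.64 to -0.94 and -1.53 to -1.07.

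The surviving call of Ctsk was fragile: it was lost without sham replicate 1 or 2 (limma adjusted p = 0.175 and 0.208), without surviving replicate 1 or 2 (0.171 and 0.175), and with the 75th percentile (0.0939), quantile normalization (0.0746) and the median of probes above background everywhere (0.0987). The dying call was lost without sham replicate 1 (limma adjusted p = 0.0907), sham replicate 2 (0.138) or dying replicate 1 (0.0588), with the 75th percentile (0.0588) and with the median of probes above background everywhere (0.0875). The difference itself stayed between -2.34 and -1.71 in both comparisons whichever array was left out. Wherever leaving out an array lost a member's call against sham, here and below, fewer of all probes passed too.

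Ctsb, an abundant lysosomal endopeptidase that also trims proteins from one end, passed in no comparison with the main scaling; with the median of probes above background everywhere it passed as higher in injured than in uninjured arrays, at 0.58 in place of -0.21. Its levels were 11.49 and 12.15 in naive, 12.39 and 12.29 in sham, 11.93 and 11.83 in surviving neurons, and 11.82 and 11.90 in dying neurons. The sham arrays were highest, and the injured arrays lay inside the naive range. Surviving and dying neurons differed by 0.02 log2 units, with a 95% interval of -1.04 to 1.07.

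Ctsl, a potent endopeptidase, was read by 2 probes that did not move alike. On A_43_P11739 the levels were 7.45 and 8.06 in naive, 8.38 and 7.91 in sham, 7.66 and 7.16 in surviving neurons, and 7.83 and 7.51 in dying neurons. On A_44_P109600 they were 5.23 and 6.01, 6.19 and 5.71, 5.78 and 5.22, and 3.85 and 5.62. The probes parted on dying replicate 1, which was 0.32 above replicate 2 on the first probe and 1.77 below it on the other (replicate 1 minus replicate 2, 0.32 and -1.77). Neither probe passed in any comparison over the 8 arrays, and the surviving minus dying difference had opposite signs, -0.26 (-1.39 to 0.87) and 0.77 (-0.78 to 2.32), the second of which turned to -0.12 without dying replicate 1. Without dying replicate 2, A_44_P109600 passed as lower in dying neurons than in sham, at -2.10 (limma adjusted p = 0.0249), and as lower in injured than in uninjured arrays, at -1.11 (limma adjusted p = 0.0441).

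Ctsc and Ctsh are exopeptidases, which trim proteins from their ends. Ctsc, also called dipeptidyl peptidase I, activates the serine proteases of immune cells. Its levels were 1.51 and 2.26 in naive, 2.26 and 2.25 in sham, 3.65 and 2.03 in surviving neurons, and 4.94 and 4.09 in dying neurons. Both dying arrays were above every other array, the surviving replicates were 1.62 apart, and surviving replicate 2 lay among the uninjured arrays. Ctsc rose 4.79-fold in dying neurons against sham (log2 difference 2.26, 95% interval 0.75 to 3.77, limma adjusted p = 0.0281), or 2.72 relative to the median of all probes, and 1.0 to 2.88 over the 7 scalings. The call was lost without sham replicate 1 or 2 (limma adjusted p = 0.127 and 0.111) and without dying replicate 1 (0.12), where the difference was 1.84. In surviving neurons against sham Ctsc differed by 0.59 (-0.92 to 2.09), which became -0.22 without surviving replicate 1.

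Several microglial transcripts were also high in dying neurons. Of 20 microglia and macrophage markers 17 were on the array, 14 of them above background on all 8 arrays. Between dying neurons and sham 14 were tested, with Itgam in place of Laptm5, which had no usable spot on the dying arrays. Of these 10 passed as higher in dying neurons and none as lower. Among the 10 is Lgals3 (galectin-3), which the paper describes as a marker of activated microglia and also of dying neurons. Lgals3 had no usable spot on dying replicate 2, so its dying level of 8.83 is that of dying replicate 1 alone. Fewer passed when sham replicate 1 or 2 was left out, which leaves the other pool alone in its group. The signals of the 15 genes with a usable spot on every array, over the array median, summed to 312 and 560 in naive, 641 and 496 in sham, 710 and 788 in surviving neurons, and 3750 and 1960 in dying neurons. Dying replicate 1 was highest in that sum and in Ctsc, and dying replicate 2 was next in both. The marker probe with the highest summed signal, that of Fcgr3, an antibody receptor, was at 1090 and 588 times the array median in dying neurons and at 297 and 329 in surviving ones. Not all markers did so: Aif1, Csf1r and P2ry12 were above background on all 8 arrays and did not pass (-0.14, -0.34 and 0.62), Itgam was above background on 4, Cx3cr1 on 3 and Ptprc on 1. The part of microglial RNA in the Ctsc result was not tested.

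**Figure D2:**
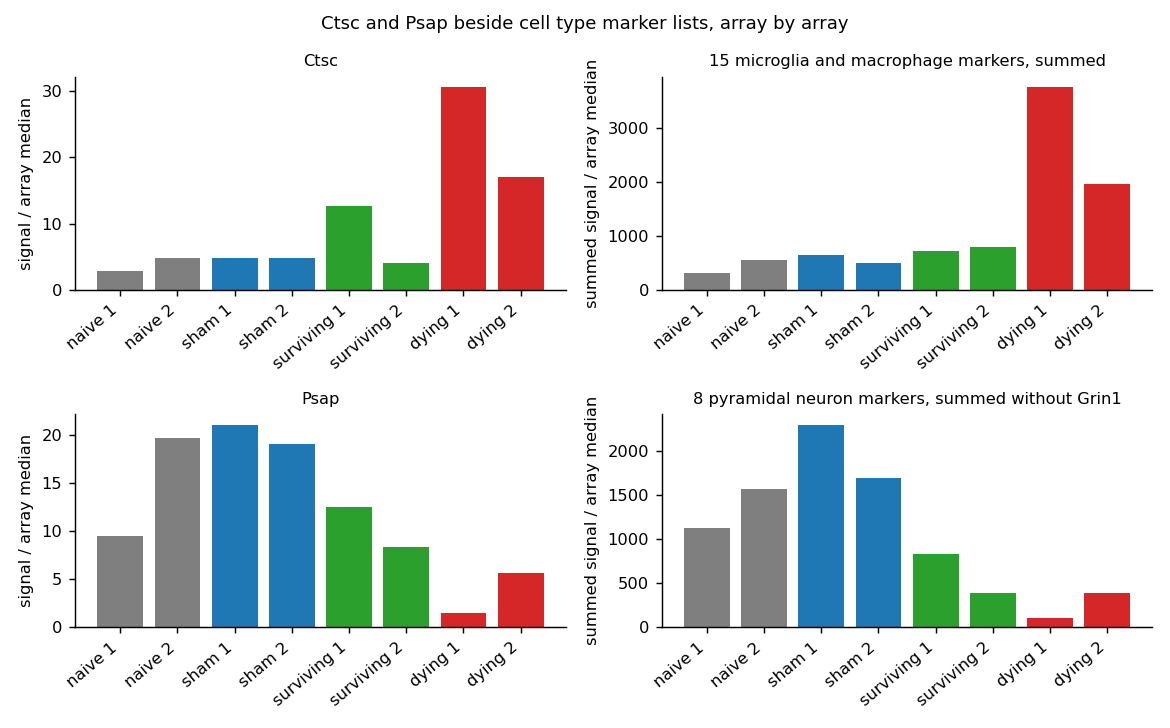
Signal over the array median on each array for Ctsc and Psap (left) and the sums over 15 microglia and macrophage markers and over 8 pyramidal neuron markers without Grin1 (right); each axis is linear and starts at 0. Ctsc and the microglial sum are highest on dying replicate 1, where Psap and the neuronal sum without Grin1 are lowest; with Grin1 that sum is lowest on dying replicate 2.

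Ctsh, an aminopeptidase, stayed within a narrow band: 2.34 and 2.57 in naive, 2.97 and 2.47 in sham, 2.71 and 2.34 in surviving neurons, and 2.77 and 2.80 in dying neurons. The dying arrays were above the surviving ones by less than the sham replicates differed, and no comparison passed with the main scaling. Ctsd, the main aspartic protease of the lysosome, was at 10.51 and 10.90, 11.31 and 11.11, 10.74 and 10.89, and 11.84 and 11.03 in the same order of groups. Its dying arrays were both above its surviving ones, by 0.62 on average (surviving minus dying -0.62, -1.74 to 0.51, limma adjusted p = 0.505), and dying replicate 1 was the highest of the 8. With quantile normalization or the median of probes above background everywhere, Ctsd did pass as higher in dying neurons than in sham, at 0.88 and 1.24 in place of 0.22, as Ctsh did with the second of these, at 1.08. Under the same scalings both passed as higher in injured than in uninjured arrays, Ctsd at 0.62 and 0.96 and Ctsh at 0.63 and 0.87.

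Psap encodes prosaposin, which is cut into the saposins that help enzymes degrade sphingolipids and is also secreted as a trophic factor for neurons. Its levels were 3.25 and 4.30 in naive, 4.40 and 4.26 in sham, 3.64 and 3.06 in surviving neurons, and 0.57 and 2.51 in dying neurons. Both dying arrays were below all 6 others, and the surviving arrays overlapped the naive ones but lay below sham. Psap fell in dying neurons to a level 6.93-fold under sham (log2 difference -2.79, 95% interval -4.44 to -1.14, limma adjusted p = 0.0186), or -2.33 relative to the median of all probes, and -2.33 to -1.16 over the 7 scalings. The call was lost without sham replicate 1 or 2 (limma adjusted p = 0.103 and 0.0774), without dying replicate 1 (0.0679, at -1.82), with quantile normalization (0.0817) and with the median of probes above background everywhere (0.0852). Against sham, surviving neurons differed by -0.98 (-2.63 to 0.67, limma adjusted p = 0.351), which was 0.01 after quantile normalization.

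Lamp2 is the receptor of chaperone-mediated autophagy, the uptake of single proteins through the lysosomal membrane, in 1 of its splice forms, and is needed for autophagosomes to mature. Its levels were 1.74 and 1.95 in naive, 2.35 and 2.20 in sham, 0.35 and -0.14 in surviving neurons, and -2.56 and -0.22 in dying neurons, the value of -2.56 not being well above background. All 4 injured arrays lay below all 4 uninjured ones, and both dying arrays were below both surviving ones, replicate 2 by only 0.08 under the lower of them. Lamp2 fell in dying neurons against sham (log2 difference -3.67, 95% interval -5.37 to -1.96, limma adjusted p = 0.00856), where 1 of the 2 dying arrays measured it, so the size of the difference is uncertain. Without dying replicate 1 the difference was -2.50 and still passed, and without sham replicate 1 it was -3.59 and did not (limma adjusted p = 0.0644).

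In surviving neurons Lamp2 was 4.50-fold under sham (-2.17, -3.87 to -0.46), with a limma adjusted p of 0.0785 that missed the threshold. It passed without dying replicate 1 or 2, where the difference was still -2.17 and more of all probes passed too. Relative to the median of all probes its differences were -3.21 in dying and -1.74 in surviving neurons, and below 0 under all 7 scalings (-3.60 to -0.60 and -2.06 to -0.89). Lamp1, the other major glycoprotein of the lysosomal membrane, was at 4.43 and 5.38 in naive, 4.99 and 4.82 in sham, 5.84 and 5.18 in surviving neurons, and 4.91 and 5.57 in dying neurons. Both surviving arrays were above both sham arrays, the other groups overlapped, and no comparison of Lamp1 passed with the main scaling. With the median of probes above background everywhere it passed as higher than sham in surviving (1.58) and dying neurons (1.35), and after quantile normalization in dying neurons (1.54). It also passed as higher in injured than in uninjured arrays with the 75th percentile (1.08), quantile normalization (1.34) and the median of probes above background everywhere (1.26).

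**Figure D3:**
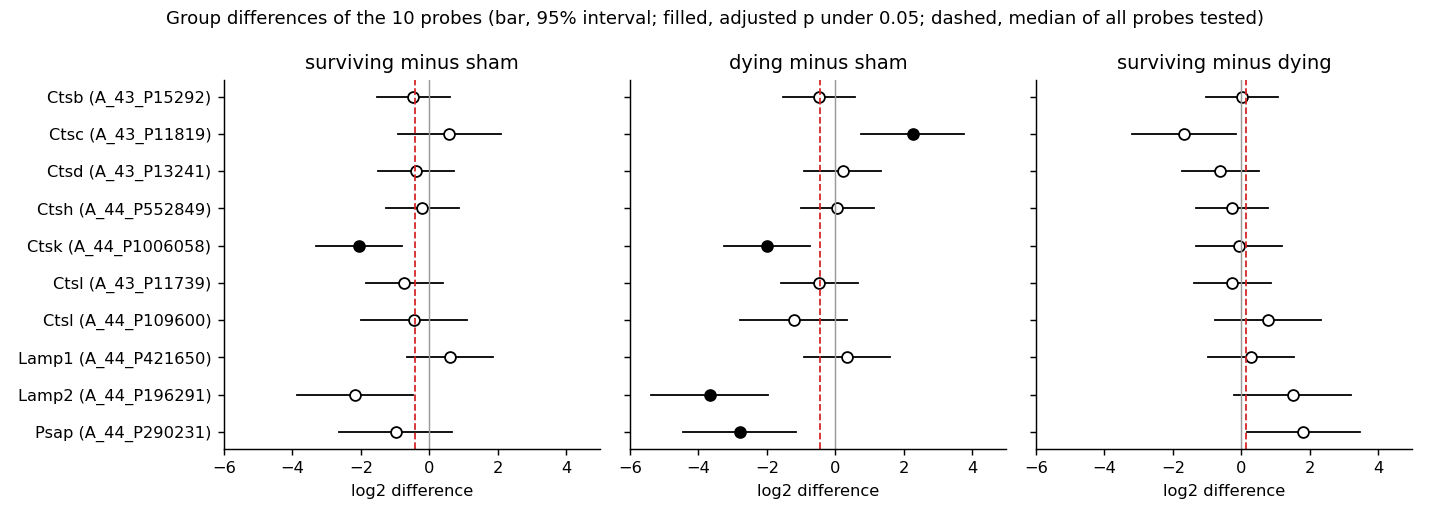
Log2 differences of the 10 probes in 3 comparisons, with 95% intervals from limma, filled where the adjusted p was under 0.05; the dashed line is the median of all probes tested (-0.43, -0.46 and 0.14). In dying neurons against sham, Ctsc is the only filled point above 0, and Ctsk, Lamp2 and Psap lie below.

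The promoters of the membrane proteins and of Ctsd are shown because many lysosomal genes carry the CLEAR element, bound by the transcription factor TFEB and built around the letters CACGTG, and because Lamp2 passed and Lamp1 did not with the main scaling, a contrast between the genes that was not tested. RefSeq promoters of the GRCr8 build, 250 bases before to 50 after the gene start, were at hand for 7 of the 9 genes. Ctsb and Psap had no entry and are named only. The core CACGTG, which reads the same on both strands, was in 2 of the 7, Ctsd and Lamp1, against 6.42% of all 33469 promoters. The core was in 21 of 94 promoters of the other lysosomal genes listed below. Ctsd held 2 copies, at positions -157 and -10 from the gene start, and Lamp1 held 5, at -183, -167, -150, -65 and -38. In the sequences below, printed 5′ to 3′ on the gene's strand, capitals mark the core: Lamp1 lies at chr16:83075014-83075313 (minus strand), Ctsd at chr1:206968772-206969071 (minus strand) and Lamp2 at chrX:122087624-122087923 (minus strand).
Lamp1: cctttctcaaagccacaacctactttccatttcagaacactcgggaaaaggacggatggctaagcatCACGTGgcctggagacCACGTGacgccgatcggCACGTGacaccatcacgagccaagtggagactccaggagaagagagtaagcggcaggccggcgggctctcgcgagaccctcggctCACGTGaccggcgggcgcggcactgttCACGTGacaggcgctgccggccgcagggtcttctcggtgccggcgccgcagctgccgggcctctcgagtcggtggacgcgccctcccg
Ctsd: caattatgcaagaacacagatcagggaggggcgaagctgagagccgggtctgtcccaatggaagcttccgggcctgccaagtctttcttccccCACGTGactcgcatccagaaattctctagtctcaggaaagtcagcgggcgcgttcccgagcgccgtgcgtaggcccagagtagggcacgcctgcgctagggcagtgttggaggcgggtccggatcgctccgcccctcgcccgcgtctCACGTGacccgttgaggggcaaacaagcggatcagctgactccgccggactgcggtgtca
Lamp2: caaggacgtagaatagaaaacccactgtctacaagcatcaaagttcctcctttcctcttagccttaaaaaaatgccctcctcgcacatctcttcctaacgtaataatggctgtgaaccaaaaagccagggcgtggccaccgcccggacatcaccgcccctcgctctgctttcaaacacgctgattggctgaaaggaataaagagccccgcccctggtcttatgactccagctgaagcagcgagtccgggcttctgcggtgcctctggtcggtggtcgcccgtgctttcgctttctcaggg

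Lamp2 held no core in this window. The GC box GGGCGG, read on either strand as GGGCGG or CCGCCC, was in 5 of the 7 (Ctsc, Ctsd, Ctsh, Ctsl and Lamp2, with 3 copies in each of the last 2), in 66 of 94 promoters of the other lysosomal genes and in 33.1% of all. Such matches describe the letters and nothing about binding. With the main scaling, neither the 2 genes with the core nor Ctsh and Ctsl, which had none, passed in any comparison over the 8 arrays, and Ctsc, Ctsk and Lamp2, which passed, had none.

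Surviving and dying neurons, the comparison the study was built on, gave no called probe: 0 of 10 members and 0% of 27404 probes tested had a limma adjusted p under 0.05. At an unadjusted p under 0.05 there were 2 of 10, Ctsc and Psap, beside 5642 probes or 20.6% of all. Ctsc was lower in surviving neurons by 1.67 (surviving minus dying -1.67, 95% interval -3.18 to -0.16, limma adjusted p = 0.208), and Psap was higher by 1.81 (0.16 to 3.46, limma adjusted p = 0.21). The 2 arrays of one group lay on one side of the 2 of the other for 5 of 10 probes (Ctsc, Ctsd, Ctsh, Lamp2 and Psap), beside 52.2% of all probes tested. The median difference was -0.03 for the members and 0.14 for all probes.

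These counts hung on the dying replicates. Without dying replicate 2, Lamp2 (2.67, limma adjusted p = 0.0196) and Psap (2.78, 0.0296) passed as higher in surviving neurons, and 5408 probes, 19.2% of 28210, passed. The dying group is then dying replicate 1 alone, which did not measure Lamp2 above background, so its 2.67 is no measured size. Without dying replicate 1 no probe passed, and the differences were 0.33 and 0.84. Ctsc was lower in surviving neurons by 2.48 without surviving replicate 1 and by 0.86 without surviving replicate 2 (differences of -2.48 and -0.86), and its sign turned to 0.14 with normexp background correction.

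With all injured arrays set against all uninjured ones, the same 4 genes passed, with 4 of 10 probes called beside 43.3% of 28369 tested. Of the members 1 was higher (17.2% of all probes) and 3 were lower (26%), and the 4 injured arrays did not overlap the 4 uninjured ones for 2 of 10, Ctsk and Lamp2, beside 38.9% of all. The calls over all probes, 4892 higher and 7390 lower, became 7868 and 4273 with the 75th percentile, 6331 and 4676 after quantile normalization and 9248 and 3847 with the median of probes above background everywhere. Ctsc was 1.61 higher (0.54 to 2.67, limma adjusted p = 0.0247), Ctsk was -1.63 (-2.52 to -0.74, 0.0118), Lamp2 was -2.70 (-3.91 to -1.50, 0.00534) and Psap was -1.61 (-2.77 to -0.44, 0.0341). Relative to the median of all probes these were 0.9 to 2.07, -1.34 to -0.66, -2.67 to -0.66 and -1.32 to -0.31 over the 7 scalings. This comparison shares its arrays with those above. The Lamp2 call was kept whichever array was left out, the Ctsk call was lost without sham replicate 2 (limma adjusted p = 0.0543) and with the median of probes above background everywhere (-0.83, 0.0532), and those of Ctsc and Psap were lost without 5 and 6 of the 8 arrays in turn, at limma adjusted p up to 0.0788 and 0.116. Psap also lost its call with the 75th percentile, quantile normalization and the median of probes above background everywhere, down to -0.81.

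Sham surgery against naive gave 0 of 10 members and 0% of 20739 probes at a limma adjusted p under 0.05, and 0 and 799 at an unadjusted p under 0.05. The 10 differences ran from 0.00 for Lamp1 to 0.80 for Ctsk, with a median of 0.41 beside 0.37 for all probes.

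The other genes of the lysosome were read through 7 lists, 92 of 114 genes being on the array, each by its brightest probe. Between dying neurons and sham 73 were tested, of which 5 passed as higher and 31 as lower, with a median difference of -1.11, beside 13.6% higher, 27.2% lower and a median of -0.46 over all probes. In surviving neurons against sham 79 were tested, and 2 passed as higher and 4 as lower, with a median of -0.56, beside 5.78%, 10.5% and -0.43 over all probes. Some counts below, such as those of the glycosidases and lipid hydrolases, lie near the share over all probes. Between surviving and dying neurons and between sham and naive none of 78 and 65 passed. The counts hung on single arrays. In dying neurons fewer genes passed as lower without sham replicate 1, sham replicate 2 or dying replicate 1. Each of these fits leaves a pool alone in its group, and in each of them fewer of all probes passed too. Calls over all probes also fell in surviving neurons without a sham or a surviving array. In surviving neurons no gene of the 7 lists passed without either sham array or either surviving array, so each surviving call below rests on all 4. With the 75th percentile, quantile normalization and the median of probes above background everywhere, the dying counts were 7 higher and 19 lower, 12 and 11, and 13 and 12. The surviving counts were 7 and 0, 5 and 1, and 12 and 2, so that each lower call in surviving neurons named below is lost with the 75th percentile. Between surviving and dying neurons the smallest unadjusted p-values in each direction, all failing the adjustment, were those of Cln3 (surviving minus dying 2.54, limma adjusted p = 0.133, with 1 of 2 dying arrays above background), Atp6v0c (1.73, 0.143), Ctss (-2.11, 0.133) and Arsb (-1.25, 0.174).

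The subunits of the proton pump, which acidifies the lysosome, were low in dying neurons: 10 of 14 tested passed as lower than sham and 0 as higher, with a median of -2.13, against -1.95 for the pyramidal neuron markers. Without dying replicate 1 these medians were -1.92 and -0.58. The count was lower without sham replicate 1, sham replicate 2 or dying replicate 1, each of which leaves a pool alone in its group. With the other scalings it was 4 to 10, and 0 with normexp. The median stayed below 0 in all of these fits (-2.41 to -1.11). Atp6v1e1, of the pump's stalk, had the largest fall, at levels of 5.93 and 5.35 in sham, 3.95 and 3.02 in surviving neurons, and 0.54 and 2.11 in dying neurons (-4.32, limma adjusted p = 0.00405). Atp6v1c1 was -3.57 (limma adjusted p = 0.0233) with 1 of 2 dying arrays above background, and Atp6v0c of the membrane ring was at 9.74 and 9.43 in surviving neurons, and 7.55 and 8.16 in dying neurons. In surviving neurons 0 of 15 subunits passed against sham, with a median of -0.83. Some passed without dying replicate 1 or 2, where that median was the same and more of all probes passed too. Tested directly, surviving against dying neurons gave 0 of 15, with a median difference of 1.37.

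Of 14 genes that sort proteins to the lysosome, 7 passed as lower and 0 as higher in dying neurons (median -1.50), or 0, 1 and 3 as lower without sham replicate 1, sham replicate 2 and dying replicate 1, and 1 of 14 passed as lower in surviving ones. That one was Rab7, a GTPase of late endosomes, at 5.14 and 4.81 in sham, 2.96 and 2.93 in surviving neurons, and 2.07 and 2.35 in dying neurons (surviving minus sham -2.03, limma adjusted p = 0.0254). Other lysosomal membrane proteins gave 5 lower and 1 higher of 10 in dying neurons (median -1.20), or 0, 1 and 2 lower without the same 3 arrays, and 1 lower of 11 in surviving neurons, Cd164 (-1.79, limma adjusted p = 0.0447). Cln3, the protein lacking in juvenile Batten disease, was at 3.36 and 2.21 in sham, 1.44 and 1.43 in surviving neurons, and -1.72 and -0.49 in dying neurons (dying minus sham -3.89, limma adjusted p = 0.005), with 1 of 2 dying arrays above background.

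The enzymes and their inhibitors were mixed. Of 13 glycosidases and sulfatases 4 were lower and 1 higher in dying neurons (median -1.41), or 0, 1 and 1 lower without the same 3 arrays, and of 15 in surviving neurons 1 was lower and 1 higher. Those were Arsb, a sulfatase of glycosaminoglycans, at -2.02 (limma adjusted p = 0.0239), and Manba, a mannosidase, which was above background on the 4 injured arrays alone and at least 1.24-fold higher than sham in surviving neurons (limma adjusted p = 0.0198). Here and below "at least" sets the mean of the bright group against the lowest signal called above background, or the dim probe's own where higher. It is a limit set by background and takes no account of the spread between pools. Of 8 lipid hydrolases and transfer proteins 3 were lower and 1 higher in dying neurons (0 lower without sham replicate 1, and 1 without sham replicate 2, dying replicate 1 or either surviving array), the last being Gm2a, the activator of GM2 degradation (at least 1.65-fold, limma adjusted p = 0.0289), and 0 of 8 passed in surviving neurons.

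Of 9 other lysosomal proteases 1 was higher and 1 lower in dying neurons, and 1 was lower in surviving neurons. Ctsz, a carboxypeptidase, was not above background in sham and was at 2.21 and 3.21 in dying neurons, at least 7.33-fold higher (limma adjusted p = 0.00862). Ctss, an endopeptidase of antigen-presenting cells, was at 5.90 and 5.33 in sham, 4.05 and 3.25 in surviving neurons, and 5.81 and 5.71 in dying neurons. It was lower in surviving neurons than in sham (-1.97, limma adjusted p = 0.0443) and differed little from sham in dying ones (0.15, limma adjusted p = 0.836). Of the inhibitors of cathepsins 1 of 5 was higher and 1 lower in dying neurons, and 1 of 7 was higher in surviving ones. Cst7, a cystatin of immune cells, was above background on the 4 injured arrays alone, at 0.10 and 0.40 in surviving neurons, and 0.87 and 0.63 in dying neurons, at least 1.39-fold (limma adjusted p = 0.011) and 1.97-fold (limma adjusted p = 0.00313) above sham.

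**Figure D4:**
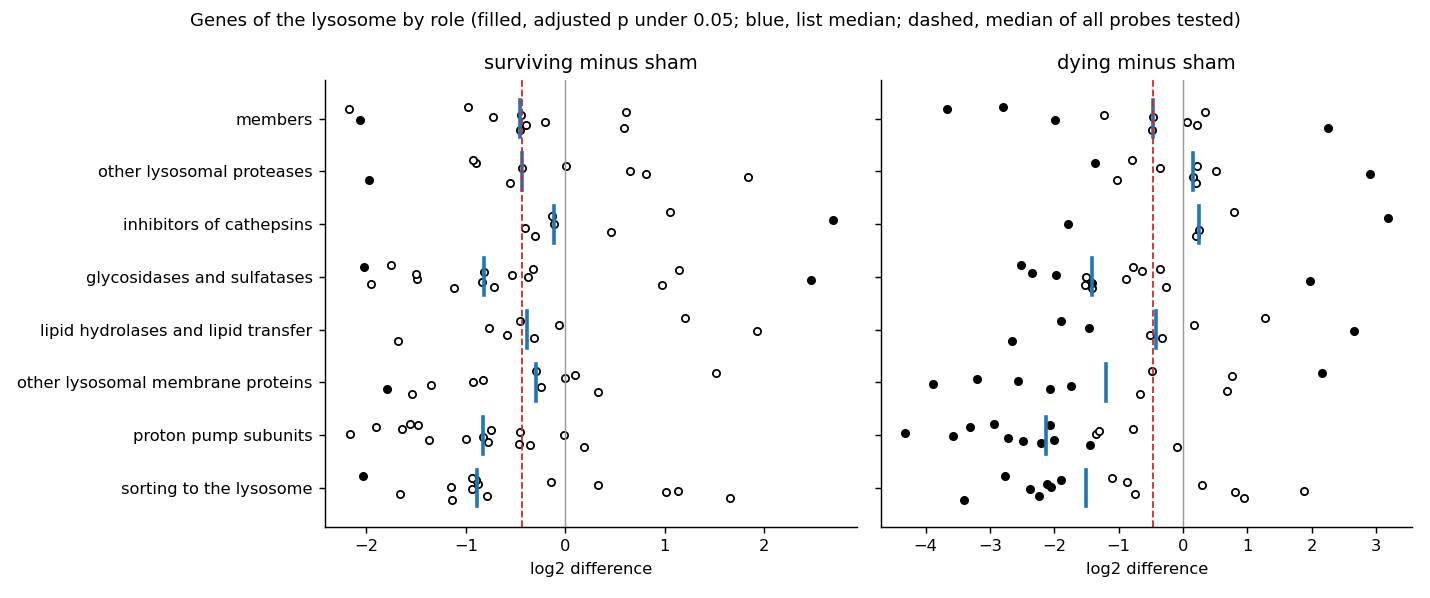
Log2 differences from sham of the 10 member probes and of the genes tested in 7 lysosomal lists, in surviving (left) and dying neurons (right), filled where the limma adjusted p was under 0.05; the blue bar is the list median and the dashed line the median of all probes tested. In dying neurons 10 of 14 proton pump subunits are filled, all below 0.

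Marker lists of cell types were read in the same way. Of 14 pyramidal neuron markers 10 were on the array, and 7 were above background on all 8 arrays, Camk2a and Slc17a7 among them. In dying neurons 1 of 10 passed as lower than sham, none as higher, with a median of -1.95; without sham replicate 1 none passed, without dying replicate 1 the median was -0.58, and without dying replicate 2 it was -2.84, with 6 lower and 2 higher. The 1 was Snap25, named after its values were seen (-3.83, limma adjusted p = 0.00678). The probe with the highest signal summed over the 8 arrays, that of the NMDA receptor subunit Grin1, hardly differed (-0.02). The signals of the 8 others with a usable spot throughout summed to 1120 and 1570 array medians in naive and 2300 and 1690 in sham. They summed to 834 and 393 in surviving neurons, and 98.2 and 391 in dying neurons. In sham most of that sum was the signal of Snap25. Its log2 levels were 10.99 and 10.49 in sham, 8.89 and 7.25 in surviving neurons, and 6.2 and 7.63 in dying neurons. Dying replicate 1 was lowest in that sum and in Psap, but not in the sum with Grin1, which was 1890 and 2640 in naive, 4070 and 2980 in sham, 2330 and 1790 in surviving neurons, and 1920 and 1600 in dying neurons. The part of neuronal RNA content in the Psap, Lamp2 and proton pump results was not tested.

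In dying neurons against sham, 13.6% of all probes tested passed as higher and 27.2% as lower. Of the remaining marker lists, astrocyte markers passed as higher in 1 and lower in 2 of 8, and oligodendrocyte markers in 0 and 1 of 6. Endothelial and pericyte markers did so in 2 and 0 of 8, and interneuron markers in 0 and 2 of 7. These counts depended on single arrays: endothelial and pericyte markers passed as higher in 0 without sham replicate 1, in 1 without sham replicate 2 or dying replicate 1, and in 4 without dying replicate 2. The interneuron median was -1.30 without dying replicate 1 and 0.86 without dying replicate 2. Among the injured arrays the sums of the 4 lists were highest on dying replicate 1, at 1230, 1020, 388 and 2000 array medians. On dying replicate 2 they were 551, 573, 150 and 494. In sham the 4 sums were 1480 and 933, 723 and 669, 127 and 98.0, and 671 and 772. In surviving neurons they were lower, at 499 and 519, 282 and 322, 87.5 and 80.4, and 510 and 455. The part of such RNA in the lower calls of surviving neurons was not tested. The probes with the highest summed signal were those of Slc1a3, Olig1, Pdgfrb and Npy, and that of Pdgfrb was at 134 times the array median on dying replicate 1 and at 17.8 on dying replicate 2. The endothelial marker Tek was above background on no array.

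With all injured arrays against all uninjured ones, 7 of 79 genes of the 7 lists passed as higher and 26 as lower. Over all probes tested 17.2% passed as higher and 26% as lower. Of the proton pump subunits 10 of 15 passed as lower. The pump count was 4 to 10 with 1 array left out, lowest without sham replicate 1, 4 to 10 with the other scalings and 0 with normexp. The lower count over the 7 lists was 14 without naive replicate 2, 10 and 14 without sham replicates 1 and 2, and 17 and 11 without surviving replicates 1 and 2, and the higher count was 11 without dying replicate 1. The balance turned with the scaling, to 16 higher and 11 lower with the 75th percentile, 14 and 12 after quantile normalization and 19 and 11 with the median of probes above background everywhere. By log2 difference the first of the higher genes were Cst7 (at least 2.01-fold, limma adjusted p = 0.000502), Manba (at least 1.27-fold, limma adjusted p = 0.00155) and Ctsz (2.36, limma adjusted p = 0.00375, with 1 of 4 uninjured arrays above background), an order that rests on uninjured values at background. Igf2r, 1 of the 2 mannose 6-phosphate receptors, and Acp5, an acid phosphatase, both named after their values were seen, were above background on all 8 arrays and passed at 1.82 and 1.40. The other receptor, M6pr, passed as lower (-1.88, limma adjusted p = 0.0336), at 1.60 on dying replicate 1 and 4.19 on dying replicate 2. The first of the lower genes were Atp6v1e1 (-3.16, limma adjusted p = 0.002), Atp6v1h of the same pump (-2.74, limma adjusted p = 0.00614, with only 2 of 4 injured and 2 of 4 uninjured arrays above background, so its size is uncertain) and Cln3 (-2.41, limma adjusted p = 0.0051, with 3 of 4 injured arrays above background).

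The pattern most like that of each member was sought among 9163 probes of named genes above background on all 8 arrays, by the Pearson r of log2 levels over the 8 arrays, as a description with no test. All probes of an array share its pool and scaling. Psap was closest to Tusc3 (r = 0.997), which had levels of 8.47 and 7.95 in surviving neurons and 5.42 and 7.21 in dying ones. Ctsc was closest to Ftl1, the ferritin light chain (r = 0.978), with 9.36 and 8.75 in surviving neurons and 10.11 and 9.38 in dying ones. In each pair dying replicate 1 was the extreme array. The nearest genes of the others were LOC682744 for Ctsk (r = 0.987), Retsat for Ctsb (0.96), Wdr31 for Ctsd (0.983), RGD1309594 for Ctsh (0.95), Commd9 for 1 of the 2 Ctsl probes (0.964) and RGD1563668 for Lamp1 (0.986). Lamp2 was not eligible, as 1 array did not measure it.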

How the data were processed

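RNA of laser-captured neurons, amplified as poly(A) RNA by the authors with a RiboAmp HS or MessageAMP II kit, was measured on 8 one-colour arrays, 2 per group. The deposited files hold, per spot, the authors' background-corrected intensity (processed signal), the mean and background signal, and other marks (well above background, non-uniform) from Agilent Feature Extraction 9.1.3.1. The deposited series values, processed by the authors in GeneSpring GX, equalled the processed signal divided by 1 constant per array and floored at a low value. The methods name scaling to each array's median, but the constants (91.41 to 205.15) are not the medians of all probes (16.4 to 52.6). Here the processed signal was divided by each array's median probe, floored at 0.01 and taken as log2, with non-uniform spots left out. A probe was tested where it was well above background on all arrays of at least 1 group compared. In all, 5 comparisons were fitted with limma 3.58.1 in R 4.3.3, with Benjamini-Hochberg adjustment over all probes tested and a threshold of 0.05. The fit was tested on simulated data.

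The replicate is a pool of animals, so each p measures the spread between pools, and the number of arrays limits the precision. A pool left alone in its group is assumed to vary like the others. The members and lists were chosen with earlier results of these data known. Other lysosomal genes are named where they passed, or, with more than 6 passing, by the 3 largest changes in each direction, and between surviving and dying neurons by the 2 smallest unadjusted p-values in each direction; the brightest probe stands for a gene. For each member the gene of highest Pearson r over the arrays is also named. Alternatives were the 75th percentile, quantile normalization, medians of RefSeq probes or of probes above background on all arrays, and normexp background correction. Further ones were other filters, non-uniform spots kept, the series values, a replicate block and leaving out each array. Surviving against dying neurons and sham against naive were also fitted on the arrays of their own slide alone. Probe names were checked against RefSeq, where 10 of 10 accessions matched.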

Additional observations from a re-analysis of the deposited data

How the results depend on the processing

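Over 50 differences of single probes, each under 18 or 19 alternative fits, 775 of 920 values kept their direction and their side of the threshold. Of the rest 50 lost a call, 20 gained one and 75 changed sign, 17 of these 75 with an array left out and 1 with a call gained. The cause was not tested, beyond the shift of the median of all probes that each scaling makes by construction. What signal over background limits is Lamp2, which dying replicate 1 did not measure.

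With the 75th percentile, surviving minus sham gave 0 called members, a median of 0.33, and 0.32 for Ctsb, 0.39 for Ctsd, 0.59 for Ctsh and 0.05 and 0.33 for Ctsl A_43_P11739 and A_44_P109600. Dying minus sham gave a median of 0.25, with 0.25 for Ctsb and 0.26 for Ctsl A_43_P11739. Sham minus naive gave a median of 0.12 and -0.02 for Ctsh, and injured minus uninjured a median of 0.30, with 0.40 for Ctsb and 0.20 for Ctsl A_43_P11739.

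With quantile normalization, surviving minus sham gave 0 called members, a median of 0.19, and 0.06 for Ctsb, 0.30 for Ctsd, 0.50 for Ctsh, 0.09 and 0.53 for the Ctsl probes A_43_P11739 and A_44_P109600 and 0.01 for Psap. Dying minus sham gave a median of 0.37, with 0.10 for Ctsb and 0.64 for Ctsl A_43_P11739. Sham minus naive gave a median of 0.08, with -0.06 and -0.10 for Ctsl A_43_P11739 and A_44_P109600. Injured minus uninjured gave a median of 0.27, with 0.12 for Ctsb and 0.34 and 0.20 for Ctsl, and surviving minus dying gave -0.03 for Ctsb.

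With the median of probes above background on all arrays, surviving minus sham gave a median of 0.52, with 0.51 for Ctsb, 0.58 for Ctsd, 0.78 for Ctsh and 0.25 and 0.52 for Ctsl A_43_P11739 and A_44_P109600. Dying minus sham gave a median of 0.54, with 0.54 for Ctsb and 0.55 for Ctsl A_43_P11739. Sham minus naive gave a median of 0.01, with -0.03 for Ctsc, -0.13 for Ctsh and -0.02 and -0.07 for Ctsl. Injured minus uninjured gave a median of 0.49, with 0.58 for Ctsb and 0.39 and 0.13 for Ctsl, and surviving minus dying gave -0.02 for Ctsb. With the median of RefSeq probes, surviving minus dying gave a median of -0.38, with -0.33 for Ctsb and -0.08 for Lamp1.

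With normexp, 0 members were called in surviving minus sham, dying minus sham and injured minus uninjured. Surviving minus dying gave a median of 1.02, with 0.14 for Ctsc, 0.82 for Ctsd, 0.44 for Ctsh, 0.50 for Ctsk and 1.23 for Ctsl A_43_P11739. Surviving minus sham gave a median of 0.57, with 0.87 for Ctsb, 0.78 for Ctsd, 0.50 for Ctsh and 0.30 and 0.65 for Ctsl A_43_P11739 and A_44_P109600. Dying minus sham gave a median of -0.83 and -0.03 for Ctsd. Sham minus naive gave a median of 0.89 and 0.75 for Lamp1, and injured minus uninjured a median of 0.41, with 0.81 for Ctsb and 0.35 and 0.28 for Ctsl.

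In surviving minus sham 0 members were called when probes had to be above background on all arrays compared, and 2 with the series value table. Sham minus naive gave 0.04 for Lamp1 with the series value table and 0.04 with non-uniform spots kept. With replicate number as a block, surviving minus sham gave 0 called members and dying minus sham kept 4. Deviations of same-numbered arrays correlated at -0.193 between surviving and dying neurons. With 2 arrays per group this cannot tell whether same-numbered pools share rats. A block with the dying numbers crossed, chosen after seeing the data, gave 0 members and 0 of 27404 probes in surviving minus dying.

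With 1 array left out, the members called ranged from 0 to 2 in surviving minus dying, 0 to 2 in surviving minus sham, 0 to 5 in dying minus sham and 1 to 5 in injured minus uninjured. In surviving minus dying the differences ranged from -0.03 to 0.07 for Ctsb, -0.21 to 0.06 for Ctsk, -0.12 to 1.65 for Ctsl A_44_P109600 and -0.06 to 0.60 for Lamp1. In surviving minus sham they ranged from -0.22 to 1.40 for Ctsc and -0.44 to 0.05 for Ctsh, and in dying minus sham from -0.18 to 0.63 for Ctsd and -0.19 to 0.31 for Ctsh. In sham minus naive they ranged from -0.01 to 0.75 for Ctsc, -0.06 to 0.72 for Ctsl A_44_P109600 and -0.48 to 0.47 for Lamp1, with medians from 0.12 to 0.71. In injured minus uninjured they ranged from -0.04 to 0.37 for Ctsd and -0.05 to 0.19 for Ctsh.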
